A study of Mus musculus with 60 samples.

Results

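Hspb6 and 8 other heat shock genes (Hspb1, Hspb8, Hsph1, Dnajb1, Hspa8, Hsp90aa1, Hspd1 and Hspe1) were followed across 20 groups of 3 Affymetrix mouse gene arrays. The members were selected on symbol, as the probe sets annotated to these 9 genes alone, and each gene was read from the set with the highest mean over all 60 arrays. All 9 genes were found, with 16 probe sets between them, among 19938 symbols and 21789 probe sets with a single symbol. Hspb6 was put on the list because it had been seen to rise in these same arrays, so its values are given as a description with no test, and the other 8 genes were tested. The cells were R1, an established mouse embryonic stem cell line, grown on feeder cells and then freed of them. They were kept undifferentiated for 6 h with a compound in 0.1% DMSO or with 0.1% DMSO alone, and every group, the controls included, carried the solvent.

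Among the 10 labelled teratogens, penicillamine, dimethadione, fluconazole, topiramate and valproic acid were given at 1 mM, thalidomide at 0.35 mM, dexamethasone at 0.1 mM, retinoic acid at 0.024 mM and methotrexate at 0.028 µM. Azacytidine stands at 0.23 µM in the sample titles and at 23 µM in the treatment field, so its dose is uncertain. Among the 9 labelled non-teratogens, chlorthalidone, hydrochlorothiazide, paracetamol and sulfasalazine were given at 1 mM, glybenclamide at 0.37 mM, metoclopramide at 0.17 mM, ondansetron at 0.054 mM, loratadine at 0.043 mM and clozapine at 0.028 mM. The sample descriptions give the doses of 9 compounds as a 10% inhibitory concentration. These were loratadine, glybenclamide, ondansetron, clozapine, metoclopramide, retinoic acid, dexamethasone, azacytidine and methotrexate. The other compounds carry no such description. Doses differ between compounds, and the values of different compounds below are set side by side at unequal doses. The values are log2 signals made with RMA, so a difference of 1 is a 2-fold change. All comparisons use the same 3 DMSO arrays. The labels do not say that the 3 arrays of a group came from separate cultures, so the p-values measure the spread between arrays, and their number limits the precision.

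Heat shock proteins are chaperones: they bind proteins that are unfolded or being folded. Small heat shock proteins (the HSPB family) hold unfolded proteins without using ATP. HSP70 proteins such as HSPA8 fold proteins in cycles of ATP use, started by J-domain proteins such as DNAJB1 and reset by exchange factors such as the HSP110 protein HSPH1. HSP90 matures kinases and receptors, and HSPD1 with its lid HSPE1 forms the folding chamber of mitochondria. After heat, the factor HSF1 binds arrays of the unit nGAAn, in alternating orientation, in the promoters of many of these genes.

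The 9 genes did not move as a group. Of the 152 pairs of a tested gene and a compound, 8 were called (limma, adjusted p under 0.05, Benjamini-Hochberg over all probe sets of a contrast), which is 5.26%. Over all probe sets and compounds 5.04% were called, so the members' share lay near the background. The called pairs were Hspb8 higher with loratadine, valproic acid and sulfasalazine, Hsph1 lower with loratadine, valproic acid, sulfasalazine and chlorthalidone, and Hspd1 lower with valproic acid.

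With valproic acid 1 of the 8 tested members rose and 2 fell, where 15.5% of all probe sets rose and 11.0% fell. With loratadine 1 rose and 1 fell, against 10.9% and 8.26% of all probe sets, and with sulfasalazine 1 rose and 1 fell, against 5.40% and 3.50%. With chlorthalidone 0 rose and 1 fell, against 1.44% and 1.14%. None of the 8 was called with the other 15 compounds. In 13 of these, 1 or 2 of the 8 had an unadjusted p under 0.05, the exceptions being azacytidine and glybenclamide. Of all probe sets, 6.59% (methotrexate) to 24.3% (glybenclamide) had such a p with these 15 compounds, among them 21.7% with hydrochlorothiazide and 22.6% with dexamethasone. The share of all probe sets called there was 9.82% for retinoic acid, 9.54% for glybenclamide, 8.76% for paracetamol, 6.25% for dexamethasone, 2.17% for hydrochlorothiazide, 1.31% for clozapine, 0.330% for ondansetron, 0.197% for metoclopramide and 0.119% for dimethadione. It was 0 for penicillamine, thalidomide, azacytidine, fluconazole, topiramate and methotrexate, with 1435 to 2575 probe sets at an unadjusted p under 0.05.

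**Figure D1:**
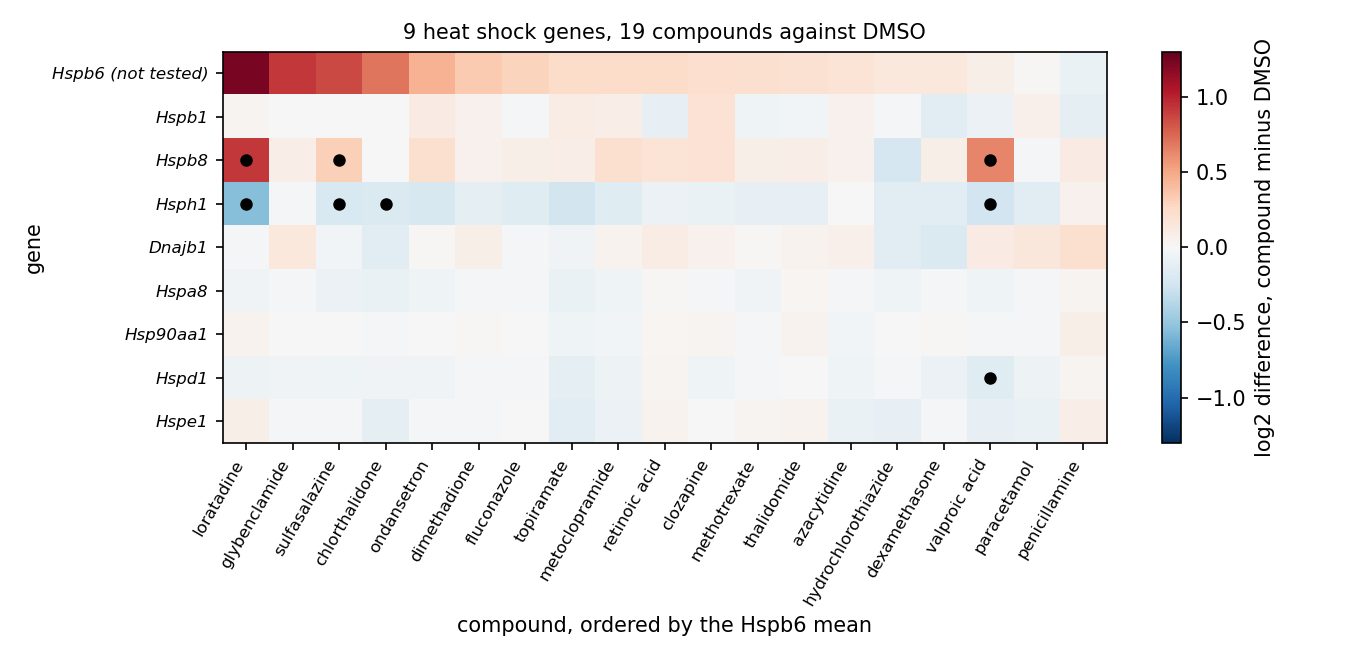
Log2 difference of the group mean from DMSO for 9 heat shock genes (rows) and 19 compounds (columns, ordered by the Hspb6 mean); black dots mark pairs called at an adjusted p under 0.05, and Hspb6 was not tested. The Hspb6 row runs from 1.23 with loratadine to -0.08 with penicillamine, while the Hspa8, Hsp90aa1 and Hspe1 rows stay close to 0.

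Hspb6 encodes HSP20, a small heat shock protein known from heart and smooth muscle. On the DMSO arrays its probe set read 9.28, 9.25 and 9.24. With loratadine, an antihistamine, it read 10.44, 10.54 and 10.49, all above every other array of the series. This was a difference of 1.23 ± 0.07 on the log2 scale (SE, 3 arrays per group), or 2.35-fold.

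Glybenclamide, a sulfonylurea that lowers blood glucose, gave 10.21, 10.14 and 10.18, a difference of 0.92 or 1.89-fold. Sulfasalazine, an anti-inflammatory drug, gave 10.11, 10.14 and 10.11, a difference of 0.86 or 1.82-fold. The arrays of these groups overlapped each other and lay between loratadine and the next group. Chlorthalidone, a diuretic, gave 9.89, 9.99 and 9.98, a difference of 0.70 or 1.62-fold. Ondansetron, an anti-emetic, gave 9.62, 9.85 and 9.66, a difference of 0.45 or 1.37-fold. Neither the chlorthalidone arrays and the ondansetron arrays, nor the sulfasalazine arrays and the chlorthalidone arrays, overlapped.

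The 5 highest groups are all classed as non-teratogens. From the fifth place to the nineteenth each group overlapped the next one, from dimethadione (9.48 to 9.71) and fluconazole (9.52 to 9.57) down to valproic acid (9.30 to 9.36), paracetamol (9.23 to 9.33) and DMSO. Penicillamine stood last, at 9.15, 9.14 and 9.24, and did not overlap DMSO. The mean was above DMSO with 18 of 19 compounds, at a median difference of 0.24, and all 3 arrays lay above all 3 DMSO arrays with 16 compounds. The DMSO arrays lay closer together (SD 0.016) than those of a group did in general (0.085), and the 18 positive differences share them. Set against the mean of the other 18 compounds in place of DMSO, loratadine was 0.93 higher, glybenclamide 0.60, sulfasalazine 0.54, chlorthalidone 0.37 and ondansetron 0.11, while dimethadione turned from 0.34 to -0.0067.

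**Figure D2:**
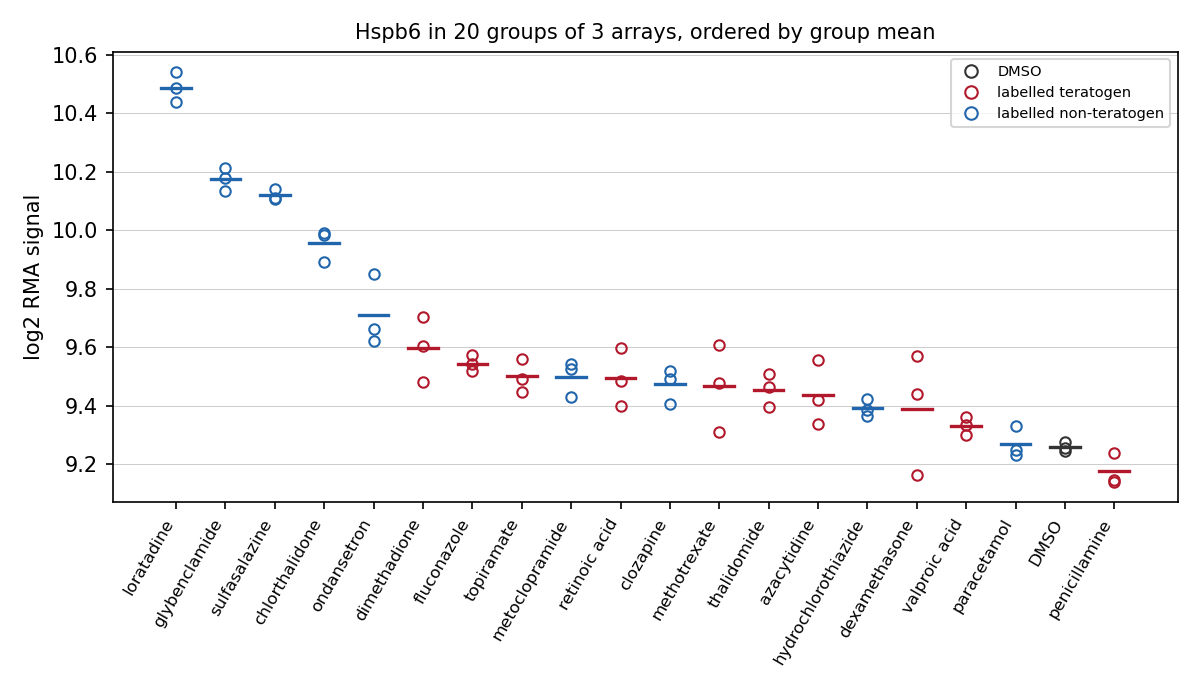
Log2 RMA signal of Hspb6 on each of 60 arrays (open circles) with the mean of each group (bar), ordered by that mean; colours give the class in the labels. Loratadine stands alone at 10.44 to 10.54, glybenclamide and sulfasalazine follow near 10.1 to 10.2, and DMSO is next to last at 9.24 to 9.28.

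The SD of the 20 group means of Hspb6 was 4.02 times its SD within groups, which describes the variation it was chosen for. The ratio was 2.78 for Hspb8, 2.18 for Hsph1 and 1.21 for Dnajb1, and below 1 for the probe sets used for the other 5 genes, with 0.608 for Hsp90aa1 the lowest. Its median over all probe sets with a single symbol was 0.971, so a ratio below 1 was common. Among these probe sets Hspb8 lay at percentile 99.0, Hsph1 at 96.9, Dnajb1 at 73.0 and Hsp90aa1 at 6.72.

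RefSeq (GRCm38.p6) holds 11 promoter windows for 7 of the 9 genes, matched by symbol, each from 250 bases before to 50 bases after a start. Hspb6 has a pair of starts. The stretches shown are the last 150 bases before the upstream start, and the 30 bases around a match in the window of the downstream start, where capitals mark GAANNTTC, a pair of heat shock units facing each other. They are shown because Hspb6 had the widest range of the 9 genes. Both strands were searched, and GAANNTTC may share its GAA or TTC with a match to TTCNNGAA, the opposite pair.
Hspb6 upstream start, chr7:30552390-30552539 (+): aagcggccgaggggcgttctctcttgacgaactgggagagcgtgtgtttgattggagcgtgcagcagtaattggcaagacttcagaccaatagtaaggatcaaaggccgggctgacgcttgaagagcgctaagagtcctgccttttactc
Hspb6 downstream start, chr7:30553170-30553199 (+): aagtaattattGAAGTTTCtaaataaggaa

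The upstream window held none of the motifs searched. The downstream window held a single GAANNTTC, at positions -120 to -113 from the start, and no run of 3 alternating units. Of 32841 windows of the same length, 7.86% held GAANNTTC, 8.52% TTCNNGAA and 0.603% a run of 3 or more units. The E-box CACGTG stood in 7.15% of all windows and TGATGNAAN, a core of the amino acid response element, in 3.95%, and neither stood in a Hspb6 window. These matches describe letters only.

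Hspb8 encodes HSP22, which works with BAG3 and HSP70 to send misfolded proteins to autophagy. It read 9.05, 9.10 and 9.16 on DMSO. With loratadine it read 10.01, 10.07 and 9.99 and with valproic acid, an antiepileptic and histone deacetylase inhibitor, 9.81, 9.77 and 9.66. These groups overlapped no other group and not each other. The rise was 0.92 ± 0.07 (1.89-fold, adjusted p = 4.58e-14 by limma) with loratadine and 0.64 ± 0.07 (1.56-fold, adjusted p = 5.76e-10 by limma) with valproic acid. Sulfasalazine gave 9.34, 9.44 and 9.45, a rise of 0.31 ± 0.07 (1.24-fold, limma adjusted p = 0.00589). That call was lost (0.15, limma adjusted p = 0.257) once the spread of signals on an array, its interquartile range, entered the model.

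Loratadine was highest for both genes, but the compounds that followed differed. With valproic acid Hspb6 read 9.33, 9.36 and 9.30, a difference of 0.07 ± 0.07, while Hspb8 rose. With glybenclamide Hspb8 read 9.28, 9.12 and 9.18 and with chlorthalidone 9.19, 9.10 and 9.02, differences of 0.09 ± 0.07 and -0.0026 ± 0.07 that were not called. Over the 19 compounds the 2 sets of differences, which share the DMSO arrays, had a Pearson r of 0.494, and of 0.055 without loratadine. Hydrochlorothiazide was lowest for Hspb8, at 8.83, 8.82 and 9.01, a difference of -0.22 ± 0.07 that was not called. The first 2 of those arrays have an interquartile range of 2.97 and 2.99, where the median array has 3.22. Hspb8 with hydrochlorothiazide was called lower in 3 alternatives. These were the fits without dim probe sets, without hydrochlorothiazide replicate 3 (-0.28), and against the mean of the other 18 compounds (-0.40).

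**Figure D3:**
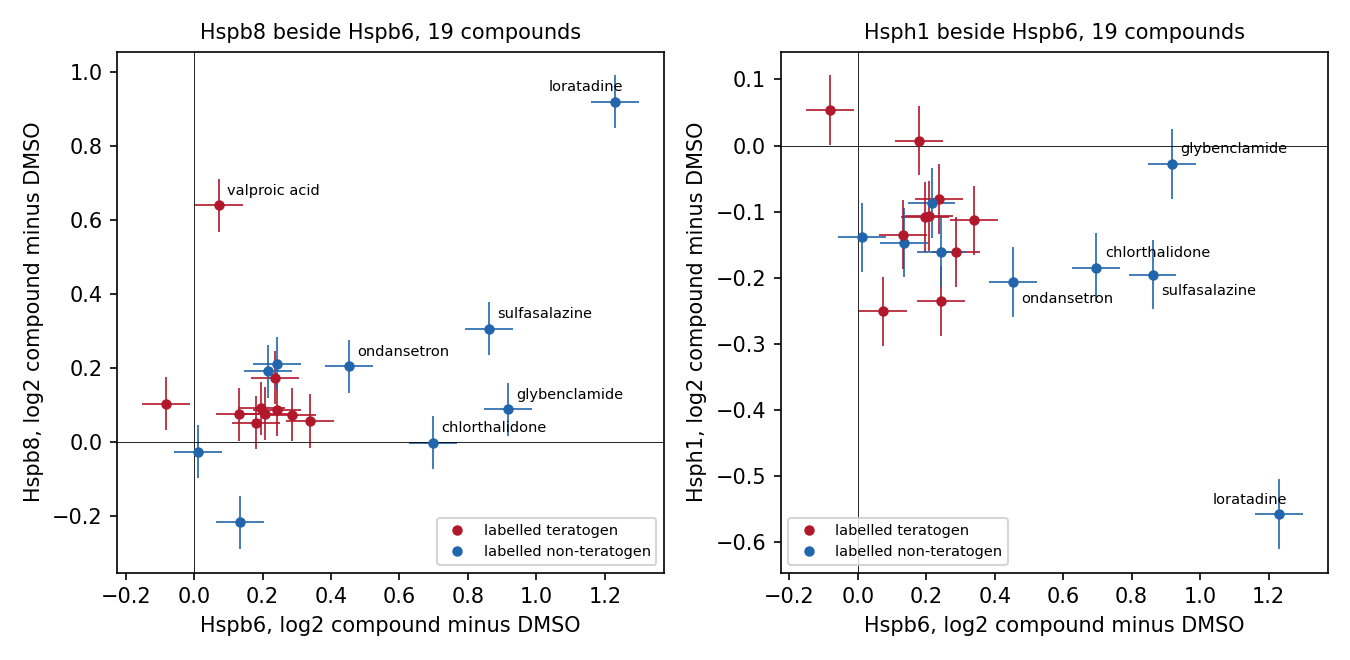
Log2 difference from DMSO of Hspb8 (left) and Hsph1 (right) against that of Hspb6 for 19 compounds, with the SE of the model as bars and the label class as colour; the axes share the 3 DMSO arrays. Loratadine lies far out on both (Hspb8 0.92, Hsph1 -0.56), valproic acid is high for Hspb8 alone with Hspb6 near 0, and glybenclamide is high for Hspb6 with both others near 0.

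Hspb1 encodes HSP27, a widely expressed small heat shock protein that also binds actin. It was not called with any compound, with a smallest limma adjusted p of 0.231 and an unadjusted p under 0.05 with 1 of 19. DMSO read 12.88, 12.84 and 12.89, and the highest group, clozapine, 13.08, 13.09 and 12.99, a difference of 0.19 ± 0.07. With loratadine it read 12.74, 13.03 and 12.96, on both sides of DMSO.

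The promoter stretches of Hspb1 and Hspb8 are shown because these small heat shock genes differed in what they did here. Hspb1 holds GAANNTTC at 2 places before its start, and Hspb8 holds it once, 3 to 10 bases after the start and so outside the stretch printed. Capitals mark GAANNTTC.
Hspb1, chr5:135887769-135887918 (+): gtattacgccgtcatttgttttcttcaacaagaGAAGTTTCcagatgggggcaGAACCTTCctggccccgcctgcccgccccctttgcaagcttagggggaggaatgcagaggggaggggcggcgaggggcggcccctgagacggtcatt
Hspb8, chr5:116422865-116423014 (-): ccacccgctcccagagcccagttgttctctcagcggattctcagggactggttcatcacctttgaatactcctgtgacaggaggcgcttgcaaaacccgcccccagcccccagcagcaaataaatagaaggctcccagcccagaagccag

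Hsph1 encodes HSP110, the exchange factor that resets HSP70. It read 11.48, 11.45 and 11.52 on DMSO and 11.01, 10.89 and 10.88 with loratadine, below every other array. That was a fall of 0.56 ± 0.05 on the log2 scale, or 1.47-fold (adjusted p = 1.5e-11 by limma). Valproic acid read 11.25, 11.22 and 11.23, a fall of 0.25 ± 0.05 (limma adjusted p = 0.000169), and sulfasalazine 11.31, 11.28 and 11.27, a fall of 0.20 ± 0.05 (limma adjusted p = 0.0156). Chlorthalidone read 11.32, 11.26 and 11.32, a fall of 0.18 ± 0.05 (limma adjusted p = 0.0412).

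The smaller calls of Hsph1 were less secure than those of loratadine and valproic acid. The chlorthalidone call was lost without any 1 of its own or of the DMSO arrays (-0.20 to -0.16). The sulfasalazine call was lost without sulfasalazine replicate 2 (-0.19), and both were lost against the mean of the other 18 compounds (-0.037 and -0.049). DMSO stood in place 3 of the 20 groups, and 17 of 19 compounds had a mean below it, 14 of the 19 with an unadjusted p under 0.05. Glybenclamide, with the second highest Hspb6, read 11.42, 11.49 and 11.46 and overlapped DMSO. Penicillamine stood highest, at 11.56, 11.58 and 11.48.

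**Figure D4:**
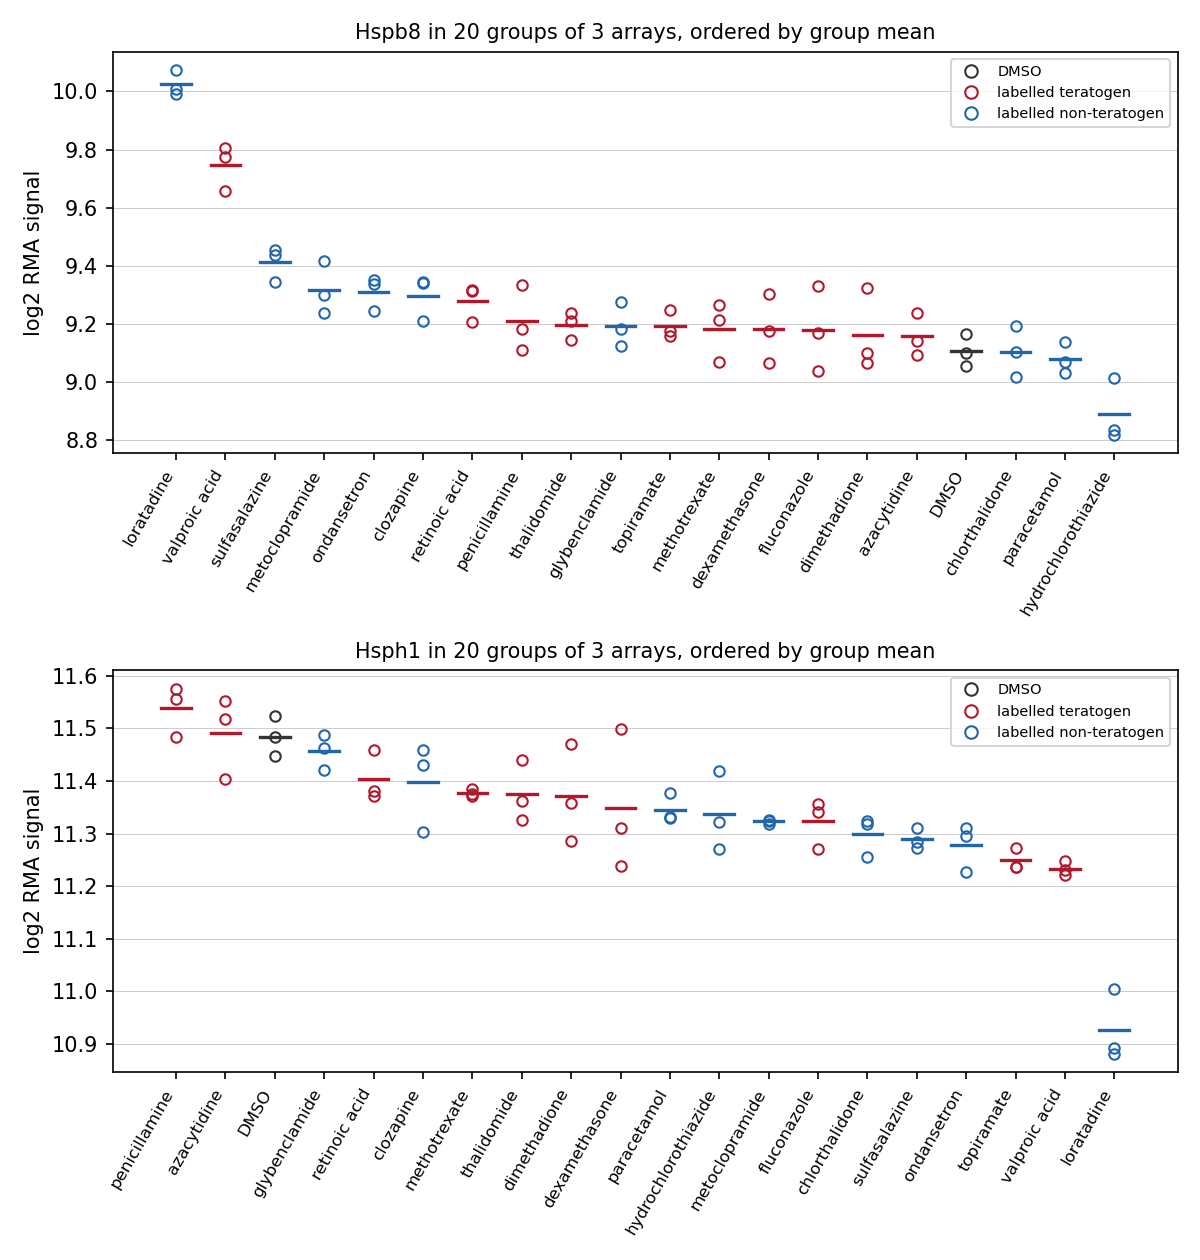
Log2 RMA signal of Hspb8 (top) and Hsph1 (bottom) on each of 60 arrays (open circles) with group means (bars), each ordered by its own mean. Loratadine is highest for Hspb8 (9.99 to 10.07) and lowest for Hsph1 (10.88 to 11.01), and valproic acid is second from the same end in both.

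Dnajb1 encodes HSP40, the J-domain partner of HSPA8 and a classic heat shock target. It was not called with any compound, with a smallest limma adjusted p of 0.0855 and an unadjusted p under 0.05 with 4 of 19. DMSO read 10.23, 10.16 and 10.19. The range ran from 0.21 ± 0.07 with penicillamine (10.30, 10.62 and 10.28) to -0.19 ± 0.07 with dexamethasone (9.98, 10.06 and 9.97). The penicillamine array at 10.62, replicate 2, also had the highest median of all 60 arrays, 7.79 against 7.71 for the next.

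Hspa8 encodes the constitutive HSP70 and Hsp90aa1 the inducible cytosolic HSP90. Neither was called, with smallest limma adjusted p-values of 0.265 and 0.491, and neither had an unadjusted p under 0.05 with any of the 19 compounds. Hspa8 read 13.93, 13.87 and 13.96 on DMSO and differed by -0.085 to 0.032 from it over the compounds, on the probe set used. The differences of another Hspa8 set, also called with no compound, departed from these by up to 0.15. Hsp90aa1 read 13.66, 13.63 and 13.64, and differed by -0.054 to 0.071.

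Hspd1 and Hspe1 encode the mitochondrial chaperonin HSP60 and its lid HSP10. Hspd1 read 12.93, 12.91 and 12.90 on DMSO and 12.75, 12.75 and 12.77 with valproic acid, a fall of 0.16 ± 0.05 (1.11-fold, limma adjusted p = 0.0103). Its other probe set fell with valproic acid too, by 0.20 ± 0.06 (limma adjusted p = 0.015). Hspe1 read 12.85, 12.74 and 12.80 on DMSO and 12.74, 12.64 and 12.68 with valproic acid, and was called with no compound (smallest limma adjusted p 0.341, none of 19 with an unadjusted p under 0.05).

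The starts of Hspd1 and Hspe1 lie back to back, and the window of Hspe1 shares 285 of its 300 bases with a Hspd1 window on the other strand. The stretch below is shown because both genes hold it, in opposite directions. It carries 4 alternating units in a row (capitals), at positions -89 to -72 from the Hspe1 start, and such a run occurs in 0.0244% of all windows. Capitals are the overlapping matches to TTCNNGAA and GAANNTTC.
Hspe1 and Hspd1, chr1:55088053-55088082 (+): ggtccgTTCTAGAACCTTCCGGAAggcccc

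Hsph1 is the other gene with a run of 3 units, which lies after its start, at bases 37 to 49 of the first of its windows. Before that start it holds 1 TTCNNGAA, at positions -33 to -26, and it is shown because Hsph1 was the member that fell most. CACGTG stood in both Hsph1 windows and in 1 of the 2 of Hspd1, and TGATGNAAN in no member's window. The Dnajb1 windows held none of the motifs, and no window was given for Hspa8 or Hsp90aa1.
Hsph1, chr5:149636337-149636396 (-): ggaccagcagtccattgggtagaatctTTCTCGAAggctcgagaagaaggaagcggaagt

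Hspb1, Hspa8, Hsp90aa1, Hspd1 and Hspe1 had 2 or 3 probe sets each. The sets of a gene differed by at most 0.15 in any compound's log2 difference, the largest for Hspa8, and no other set was called apart from that of Hspd1. Genes with several sets may have near-identical copies whose signal cannot be told apart from theirs, and the set used may be one that reads a copy.

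The teratogen and non-teratogen means were compared over compounds, 10 means against 9. Hspb6 differences from DMSO ranged from -0.08 to 0.34 in teratogens (median 0.20) and from 0.01 to 1.23 in non-teratogens (median 0.45). The teratogen mean minus the non-teratogen mean was -0.35 ± 0.12, given with no test, and -0.26 without loratadine. The ranges overlapped. Of the 8 tested members none was called, as was 0 of all 21789 probe sets (limma on compound means), with 955 probe sets (4.38%) and 1 member, Hspb1, at an unadjusted p under 0.05. Hspb1 averaged 12.83 ± 0.08 (SD, 10 compounds) in teratogens and 12.92 ± 0.07 (SD, 9 compounds) in non-teratogens (limma adjusted p = 0.976).

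The rest of the cytosolic and mitochondrial chaperone system was read from 8 lists of 78 genes, of which 75 were measured. Hsf1 and Hsp90ab1 were among those not analysed here, as was Hspa1b, whose probe set is shared with Hspa1a. With valproic acid 13 of the 75 rose (17.3%) and 7 fell (9.33%), beside 15.5% and 11.0% of all probe sets. With loratadine 9 rose (12.0%) and 2 fell (2.67%), beside 10.9% and 8.26%. With sulfasalazine 2 rose and 2 fell (2.67% each), beside 5.40% and 3.50%, and with chlorthalidone 2 rose (2.67%) and 0 fell, beside 1.44% and 1.14%. In either direction 7 were called with dexamethasone (9.33%, beside 6.25% of all probe sets), 6 with glybenclamide (5 up, 6.67%, and 1 down, 1.33%, beside 6.79% and 2.75%), 5 with paracetamol (6.67%, beside 8.76%), 4 with retinoic acid (5.33%, beside 9.82%) and 1 with ondansetron (1.33%, beside 0.330%). None was called with the other 10 compounds by limma, where 2 to 18 of the 75 had an unadjusted p under 0.05, the most with hydrochlorothiazide. Of all probe sets, 6.59% (methotrexate) to 21.7% (hydrochlorothiazide) had such a p with these compounds.

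Dnajb4, a J-domain partner of HSP70, rose with more compounds than any other gene of the lists named here. It read 8.74, 8.56 and 8.84 on DMSO and 9.49, 9.38 and 9.48 with loratadine, a rise of 0.74 ± 0.09 (limma adjusted p = 1.12e-08). It rose with 8 of 19 compounds, among them sulfasalazine (0.55), ondansetron (0.51), dexamethasone (0.50), retinoic acid (0.39), valproic acid (0.34), glybenclamide (0.32) and chlorthalidone (0.31). Dnajb14, a J-domain protein of the endoplasmic reticulum membrane, rose with chlorthalidone (0.39), glybenclamide (0.35) and sulfasalazine (0.27). These are 3 of the 4 compounds with the highest Hspb6. Several of these calls were lost when a single array was left out, which also leaves fewer arrays to call a difference with. Dnajb4 lost its call with ondansetron without DMSO replicate 2 (0.43) or ondansetron replicate 2 (0.43), with glybenclamide without DMSO replicate 2 (0.24) or glybenclamide replicate 2 or 3 (0.30 and 0.31), and with chlorthalidone without DMSO replicate 1 or 2 (0.33 and 0.24) or chlorthalidone replicate 2 or 3 (0.31 and 0.26). Dnajb14 lost its call with chlorthalidone without replicate 3 of that group (0.30). With sulfasalazine it lost it without DMSO replicate 1 or 2 or any sulfasalazine array (0.21 to 0.32). Over the 14 J-domain genes and 19 compounds, 15 of 266 pairs rose and 4 fell, 7.14% in all beside 5.04% of all probe sets and compounds. The falls included Dnajb12 with valproic acid (-0.40) and loratadine (-0.18, lost without DMSO replicate 3 at -0.15).

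The inducible HSP70 gene Hspa1a followed another pattern. It read 8.73, 8.88 and 8.78 on DMSO, 9.59, 9.71 and 9.60 with valproic acid, and 9.22, 9.15 and 9.04 with paracetamol. It rose by 0.84 ± 0.07 (limma adjusted p = 6.63e-13) and 0.34 ± 0.07 (limma adjusted p = 0.00126), while loratadine gave 8.85, 8.86 and 8.84, inside the DMSO range. Hspa1a and Hspa1b are near-identical copies, so the signal may hold both. Hspa2, an HSP70 known from testis, read 8.18, 8.19 and 8.30 on DMSO and 9.12, 9.10 and 9.19 with valproic acid. It rose by 0.91 ± 0.06 with valproic acid and by 0.31 ± 0.06 with paracetamol (limma adjusted p = 5.89e-17 and 0.000222). Of the 10 measured HSP70 and HSP110 genes 6 rose with valproic acid and 2 fell, where 15.5% and 11.0% of all probe sets did. One that fell was Hspa9, the mitochondrial HSP70 (-0.18 ± 0.05). It was also called with dexamethasone (-0.17 ± 0.05), but that rested on dexamethasone replicate 1, without which the difference was -0.052, and leaving out a single DMSO array ended the call too, whichever it was (-0.17 to -0.15).

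**Figure D5:**
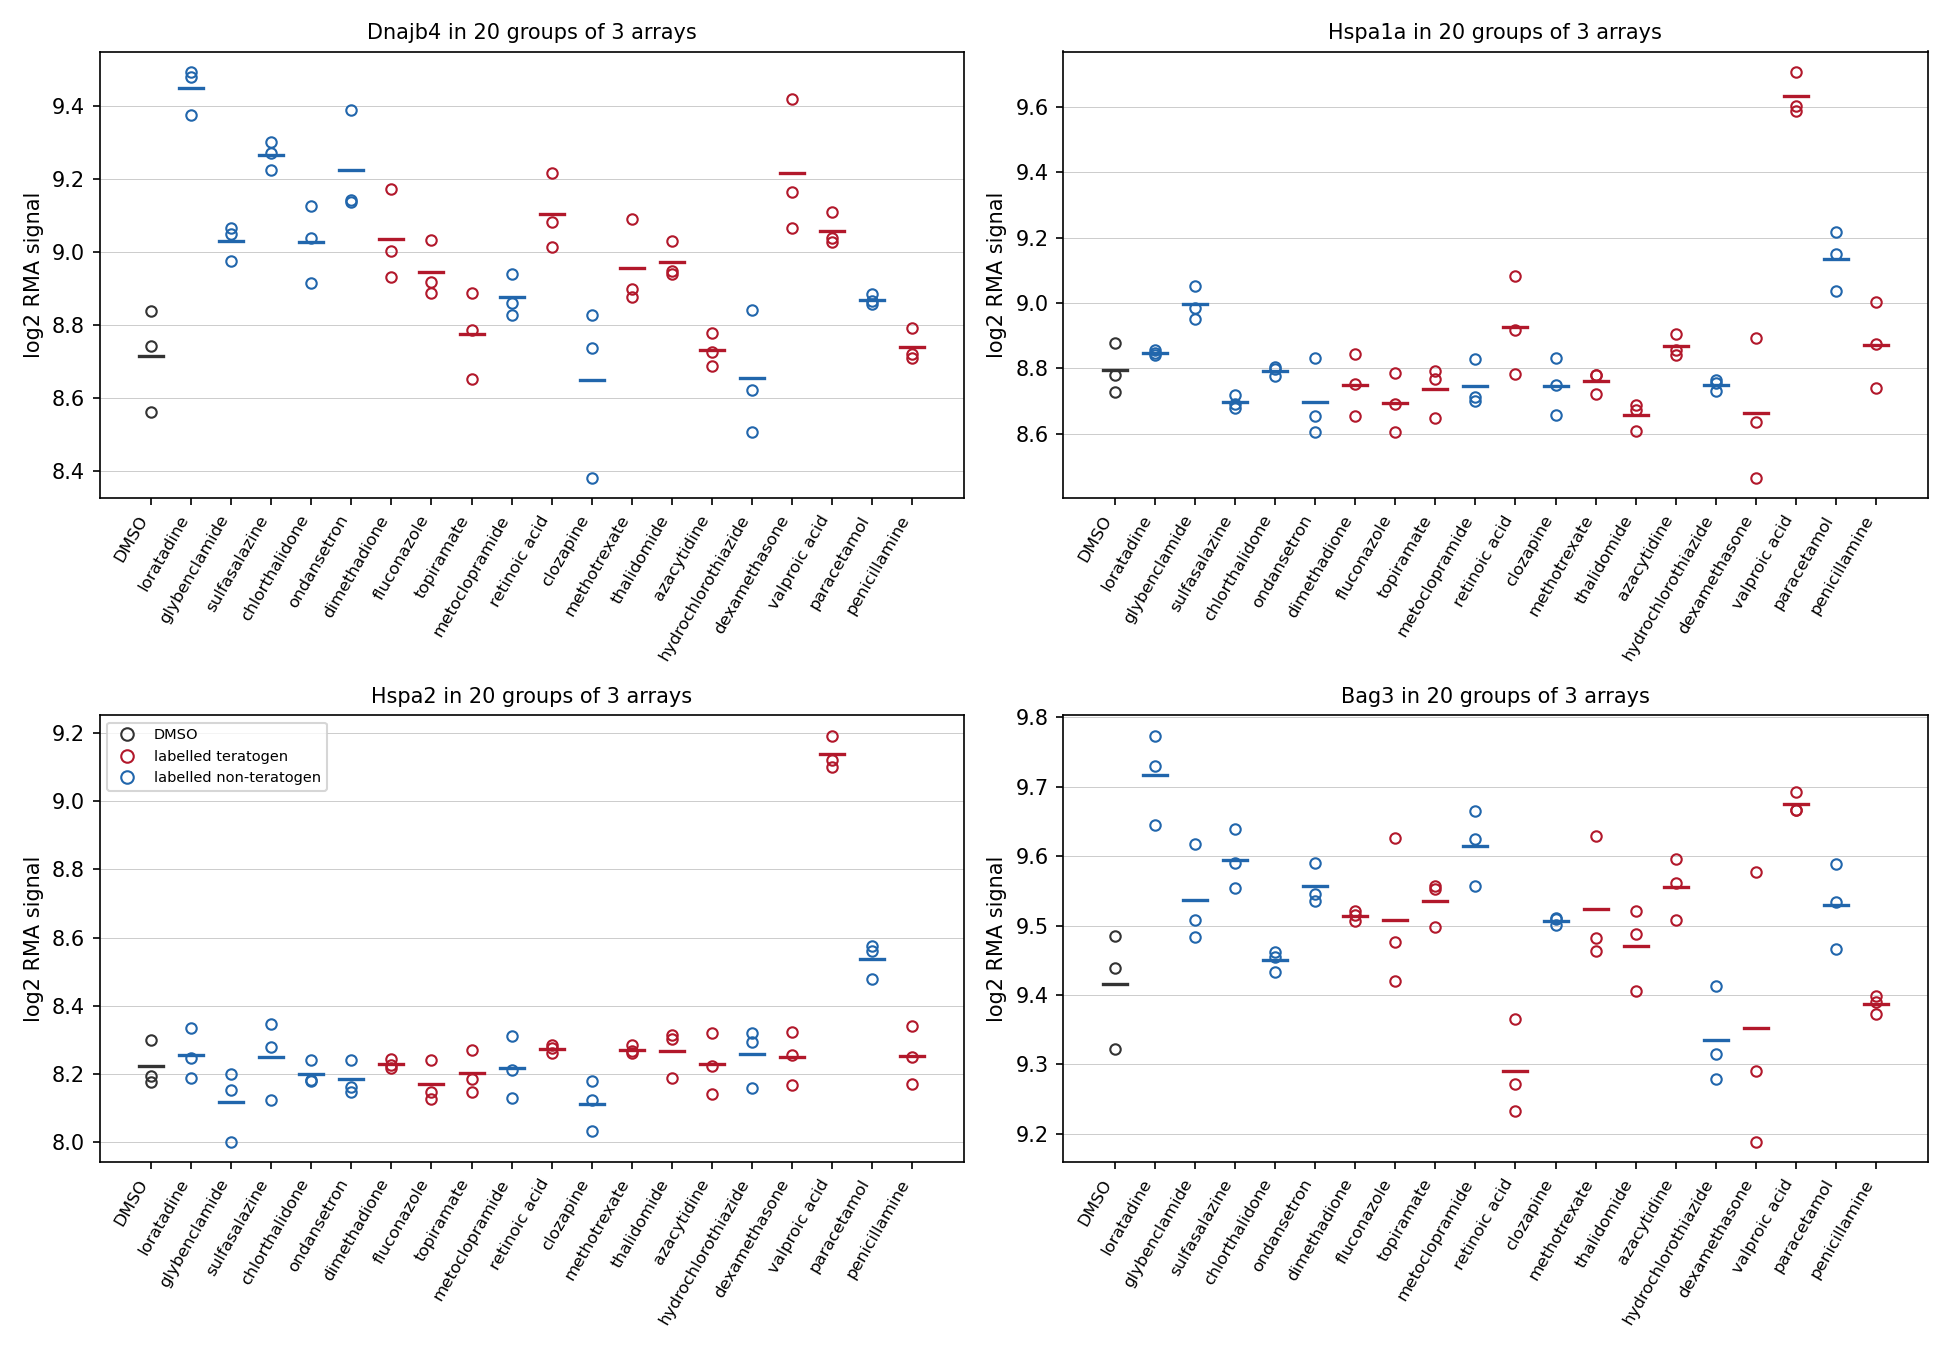
Log2 RMA signal of Dnajb4, Hspa1a, Hspa2 and Bag3 on each of 60 arrays (open circles) with group means (bars), with DMSO first and the compounds in order of the Hspb6 mean. Dnajb4 is highest with loratadine (9.38 to 9.49), Hspa1a and Hspa2 with valproic acid (9.59 to 9.71 and 9.10 to 9.19), and Bag3 with loratadine and valproic acid.

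Bag3, the partner of HSPB8, read 9.44, 9.32 and 9.49 on DMSO, 9.65, 9.73 and 9.77 with loratadine and 9.69, 9.67 and 9.67 with valproic acid. It rose by 0.30 ± 0.06 (limma adjusted p = 0.00024) and 0.26 ± 0.06 (limma adjusted p = 0.000765) with the same 2 compounds that gave the highest Hspb8, and with no other. These compounds also had the largest share of all probe sets called, 19.2% and 26.5%. Sulfasalazine, the third for Hspb8, gave 9.59, 9.55 and 9.64, and metoclopramide, the fourth, 9.56, 9.62 and 9.66. Neither was called. Of the 11 measured BAG and related genes, Stub1, a ubiquitin ligase of HSP70 clients, rose with loratadine (0.26, lost without loratadine replicate 3 at 0.22), and Grpel2, a mitochondrial exchange factor, rose with valproic acid (0.26).

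Among 7 other small heat shock genes, Cryab (alpha B-crystallin) rose with loratadine by 0.27 ± 0.07 (limma adjusted p = 0.00294), from 10.35, 10.45 and 10.43 to 10.67, 10.73 and 10.64. Hspb7, a small heat shock gene of heart, was called lower with sulfasalazine (-0.35), loratadine (-0.30) and retinoic acid (-0.28). All 3 calls were lost without DMSO replicate 2 (-0.29, -0.24 and -0.22), and also without sulfasalazine replicate 2 (-0.32), loratadine replicate 3 (-0.28), and DMSO replicate 1 (-0.30) or retinoic acid replicate 1 or 2 (-0.29 and -0.23) respectively. Hspb3 was called higher with dexamethasone (0.30), but without dexamethasone replicate 3, one of the arrays that stand apart in spread or median, the difference was 0.19 and not called, as it was without DMSO replicate 1 or 3. Both genes have low signals, at the 27.4th and 24.8th percentile of probe sets. Of the HSP90 genes and co-chaperones, 12 measured, Fkbp5, a glucocorticoid receptor co-chaperone, rose with loratadine (0.27 ± 0.06) and was not called with dexamethasone. Trap1, the mitochondrial HSP90, was called with loratadine (0.16), and lost that without any 1 loratadine array (0.15 to 0.18) or DMSO replicate 2 (0.10). Sugt1, a co-chaperone, rose with valproic acid (0.26, lost without DMSO replicate 2 at 0.20).

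The 8 subunits of the cytosolic chaperonin gave 1 call in 152 pairs (0.658%, beside 5.04% over all probe sets and compounds). It was Cct8 with dexamethasone (-0.16), lost without DMSO replicate 1 or 3 (-0.15 each) or dexamethasone replicate 1 or 3 (-0.12 and -0.13). Of the 10 mitochondrial proteases and import genes, 2 rose and 3 fell with valproic acid, where 15.5% and 11.0% of all probe sets did, among them the protease gene Htra2 (0.29) and the import receptor gene Tomm20 (-0.24). The protease gene Spg7 fell with valproic acid (-0.26) and was called higher with loratadine and glybenclamide (0.19 each), calls that were lost without DMSO replicate 1 or 2, or replicate 1 or 3 of the compound (0.17 to 0.20). Of the heat shock factors Hsf2, Hsf4 and Hsf5, 0 of 57 pairs was called, with 3 at an unadjusted p under 0.05 (limma).

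The genes most like Hspb6 were taken as the 5 of 10893 probe sets with a mean above the median whose 19 differences correlated best with its own. They were Slc3a2 (Pearson r 0.957), Cd68 (0.951), Lrrc8d (0.943), Cnpy2 (0.940) and Trib3 (0.937), over 19 compounds that share the DMSO arrays. Without loratadine the r lay between 0.894 and 0.930. The 5 were picked for a high r over these same differences, so the r and the values below are a description only. Cd68, which encodes a protein of lysosomes and late endosomes, differed by 1.01 with loratadine, 0.75 with glybenclamide, 0.59 with sulfasalazine and 0.49 with chlorthalidone, and by -0.12 with valproic acid. Trib3, which encodes a stress-induced pseudokinase, differed by 0.93, 0.50, 0.66 and 0.70 in the same order, and by 0.11 with valproic acid. Slc3a2, the heavy chain of amino acid transporters, differed by less, 0.27, 0.18, 0.19 and 0.13 for the same compounds. Of the tested members, Hsph1 had an r with Hspb6 of -0.573, which became -0.167 without loratadine. For Hspa8, called with no compound, r was -0.405, and -0.436 without loratadine. Apart from Hspb8, given above, the other tested members had an r from -0.220 (Dnajb1) to 0.220 (Hspb1) over the 19 compounds.

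The nearest genes on the chromosome were not called with the compounds that had the highest Hspb6. Proser3, the neighbour that lies before Hspb6 in the RefSeq gene order, was not called with loratadine (0.07 ± 0.08), glybenclamide (0.22 ± 0.08, limma adjusted p = 0.0753), sulfasalazine (0.05 ± 0.08) or chlorthalidone (0.07 ± 0.08). It fell with valproic acid (-0.57 ± 0.08, limma adjusted p = 1.04e-07), where Hspb6 differed by 0.07. In all, Proser3 was called with 2 of the 19 compounds by limma, with an unadjusted p under 0.05 in 6. Arhgap33, the next one, was called with valproic acid alone (0.23 ± 0.06). Lin37 and Psenen, on the other side, were called with none of the 19 compounds by limma, with an unadjusted p under 0.05 in 3 and 1 of them.

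The cell type was checked with 3 marker lists, and in bulk RNA a change in the share of a cell type and a change in RNA per cell cannot be told apart. All 9 embryonic stem cell markers lay at or above the 83.0th percentile of signal. With paracetamol 6 of them fell (Zfp42 -0.38, Nanog -0.28), where 4.15% of all probe sets fell. With valproic acid 5 fell, Nanog most (-0.68), where 11.0% of all fell. With loratadine Esrrb (0.34) and Klf4 (0.19) rose, where 10.9% of all rose. The other calls were Klf4 with sulfasalazine (0.22), Esrrb with clozapine (0.31), Nanog with retinoic acid (0.18), dexamethasone (-0.24) and chlorthalidone (-0.18), and Tdgf1 with dexamethasone (-0.19). The 9 feeder markers ran from percentile 2.98 of signal (Lum) to 98.6 (Acta2), with a median of 56.1. Of these 9, 3 lay below the median of all probe sets. They averaged 8.50 to 8.58 on the DMSO arrays, 8.46 to 8.57 with loratadine and 8.48 to 8.54 with valproic acid. Single feeder markers moved in both directions: with loratadine Col3a1 (-0.21), Pdgfrb (-0.20) and Dcn (-0.22) fell and Postn (0.22) rose, and with valproic acid Thy1 (0.48) rose and Col1a2 (-0.16) fell. Of all probe sets 10.9% rose and 8.26% fell with loratadine, and 15.5% rose and 11.0% fell with valproic acid. Col3a1 also fell with glybenclamide (-0.22) and sulfasalazine (-0.27), Pdgfrb fell with dexamethasone (-0.24), and with retinoic acid Pdgfrb rose (0.29) and Thy1 fell (-0.26). The 7 muscle markers were looked at because muscle is rich in Hspb6, and ran from percentile 29.6 (Myl2) to 84.3 (Cnn1), with a median of 59.1. They averaged 8.64 to 8.69 on DMSO and 8.63 to 8.64 with loratadine, where Hspb6 was highest. With valproic acid, where Hspb6 was near DMSO, they averaged 8.80 to 8.82. The intermediate filament gene Des rose with valproic acid (0.52), sulfasalazine (0.49), loratadine (0.41), paracetamol (0.39) and glybenclamide (0.32). Other muscle markers went the other way with the same compounds: Tnnt2 fell with loratadine (-0.19) and sulfasalazine (-0.21), and Actc1 fell with glybenclamide (-0.27). Cnn1 (0.30) and Smtn (0.37) rose with valproic acid, where 15.5% of all probe sets rose. Over the 19 compounds 11.1% of the pairs of a stem cell marker and a compound were called. The share was 6.43% for feeder markers and 7.52% for muscle markers, beside 5.04% over all probe sets and compounds. The part of these marker shifts in the results on heat shock genes was not tested.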

How the data were processed

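The authors deposited 1 log2 RMA signal per probe set and array. RMA is named in the submitters' processing notes; its version and options, and a genome build, were not given in the sources used here. Of 35556 probe sets, 21789 had a single symbol in the platform annotation and were tested as deposited; 1621 had several and 12146 had no entry. A mean per group was fitted over 60 arrays (limma 3.58.1, R 4.3.3, default moderation), with a contrast of each compound to DMSO and Benjamini-Hochberg adjustment within it. Errors of differences are SEs of that model.

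The members and lists were chosen with earlier results of these data known, so no list was tested. The text names all members, Hspa9, Bag3 and Hspa1a, up to 3 called genes with the largest change per list, the 5 genes most like Hspb6 and 2 neighbours on each side. Marker genes with calls were named after their values were seen. Array medians ran from 7.58 to 7.79, and no arrays were identical. The fit was checked on simulated data, where small changes were recovered less often than large ones, so a pair not called may still hold a small change. Alternatives were quantile normalisation, a filter on dim probe sets, all probe sets, a model of 6 arrays, trend and robust moderation, array spread or the letter b of some titles as covariate, the other 18 compounds as the reference, the next brightest probe set and leaving out each array. Leaving out 4 arrays with an outlying spread or median was chosen after seeing the data.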

Additional observations from a re-analysis of the deposited data

Results flagged for a closer look

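Within a class, 3 of 16 sets of compound differences (8 tested genes, 2 classes) had 1 compound far from the others by Dixon's test. Its nominal rate is about 1 in 20, but the share of all probe sets flagged this way was not computed. The flagged compounds were loratadine and valproic acid, with which 19.2% and 26.5% of all probe sets were called against DMSO. The genes were also chosen with earlier results known, so the flags are a description only. Hspb8 stood apart with valproic acid among the 10 teratogens, at 0.639 above DMSO, where the next compound was at 0.173. It also stood apart with loratadine among the 9 non-teratogens, at 0.919, where the next was at 0.306. Hsph1 stood apart with loratadine among the 9 non-teratogens, at -0.557, where the next was at -0.207.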

How the results depend on the processing

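The count of tested members called, 8, lay between 7 and 12 in the fits that left out 1 array each and in the others, except that it was 13 without probe sets under the median and 18 when the other 18 compounds took the place of DMSO. The share of all probe sets called in these alternatives is not given here, so the counts cannot be set beside a background. The 12 found without the 4 arrays that stand apart came from an alternative chosen after seeing the data. Hspb8 with loratadine (0.80 to 0.96) and valproic acid (0.50 to 0.68), Hsph1 with loratadine (-0.60 to -0.43) and valproic acid (-0.27 to -0.11) and Hspd1 with valproic acid (-0.20 to -0.11) stayed called in every alternative run. Hsph1 with chlorthalidone lost its call in 8 of 15, with sulfasalazine in 2 of 15, and Hspb8 with sulfasalazine in 1 of 15; the cause was not tested. Hsph1 gained a call with ondansetron (-0.21 in the model of all arrays) in 9 alternatives and with topiramate (-0.24) in 6. Hspb8 with hydrochlorothiazide, Dnajb1 with dexamethasone, and Hsph1 with dexamethasone and with paracetamol gained a call in 3 each, and further pairs in fewer. Of 40 called pairs of the other chaperone genes named, 21 kept the call without any 1 of the arrays compared and 19 lost it without at least 1, an alternative chosen after seeing the data. Hspb6 with dimethadione turned to -0.0067 against the mean of the other 18 compounds. Between the classes no tested member was called in any of 21 alternatives. No paired analysis was possible because the replicate numbers follow only the order of deposit. The 3 arrays per group limit the precision.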
